A study of Mus musculus with 4 samples.

Results

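The constitutive proteasome genes were compared between the quadriceps of wild-type (WT) mice and of NF90-NF45 dbTg (double-transgenic) mice, which are transgenic for NF90 as well as for NF45. Genes were taken as members if a probe set carried 1 symbol only and that symbol was Psma, Psmb, Psmc or Psmd followed by digits. The interferon-inducible subunits Psmb8, Psmb9 and Psmb10, the thymus subunit Psmb11 and the testis subunit Psma8 were left out. This gave 33 genes, from 35 probe sets, of the 22180 genes that the array names by 1 symbol, and the brightest probe set by the mean of the 4 arrays stood for each gene. The members comprised 13 genes of the core particle, 17 genes of the regulatory particle and 3 genes with Psmd names whose products act as assembly chaperones of the regulatory particle. Psma4, a core particle gene, is not a member because its probe sets also carry the symbol AY074887.

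The 2 WT and 2 dbTg animals gave 1 array each. In each group replicate 1 was a male and replicate 2 a female. The age was 17 to 18 weeks for WT replicate 1 and 16 weeks for each of the others. The promoter and the target cells of the transgenes, and whether the WT mice were littermates, are not stated in the labels. Values are expression values on the log2 scale from robust multi-array averaging (RMA), so a difference of 1 is a 2-fold difference. Differences are dbTg minus WT, SD is over the 2 arrays of a group, and SE and 95% intervals come from limma, fitted over the 13308 genes whose mean level reached the 40th percentile (1.48 on the log2 scale). A gene was called at a Benjamini-Hochberg adjusted p under 0.05.

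Across those genes the arrays correlated at 0.946 to 0.981 (Pearson's r across genes, which are not independent replicates). Ilf2, which encodes NF45, read 5.03 and 5.04 in WT and 10.36 and 10.16 in dbTg, so both dbTg arrays carried the labelled difference. Markers of muscle fibres averaged 10.10 and 10.20 on the log2 scale in WT and 10.22 and 10.03 in dbTg over 10 genes. Markers of macrophages and other leukocytes, over 12 genes, averaged 2.57 and 2.37 in WT and 4.54 and 4.34 in dbTg, and 7 of the 11 tested were called higher. Adipocyte markers averaged 3.43 and 3.55 in WT and 4.60 and 4.50 in dbTg, with 2 of 5 called higher and a median difference of 1.31. Fibroblast markers had 0 of 7 tested called, with 7 of 8 positive, both dbTg arrays above WT for 6, and a median of 0.56. Endothelial markers had 0 of 9 called, but 9 of 9 were negative and 8 had both dbTg arrays below WT, with a median of -0.42. All these cell types express the proteasome, and the part of these marker differences in the values below was not tested. In whole muscle, more cells of a type and more RNA per cell cannot be told apart.

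The proteasome is the protease that degrades proteins marked with ubiquitin chains. Its core particle is a barrel of stacked rings, with outer alpha rings that form the gate and inner beta rings that hold the threonine proteases. The regulatory particle caps the barrel: a base with a ring of ATPases unfolds the substrate and opens the gate, and a lid removes the ubiquitin. In skeletal muscle the proteasome breaks down most short-lived and many myofibrillar proteins, and its genes are known to be induced together during wasting and when proteasome activity falls short.

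No constitutive proteasome gene passed the threshold in dbTg muscle, although most read slightly higher there. Of the 33 genes, 29 had positive and 4 had negative differences, with a median of 0.22, a 1.16-fold difference. The range ran from -0.37 for Psmd9 to 0.64 for Psmd8, and the median of all 13308 tested genes was 0.089, with 60.5% of them positive. That background median rose with the intensity limit. It was -0.015 with no limit and 0.13 over the 8872 genes at or above the 60th percentile, which 31 of the 33 members reached. Both dbTg arrays read above both WT arrays for 20 of the 33 genes (60.6%) and below for 1, Psmd9. Over all tested genes the same order was found for 33.7% above and 16.3% below. The difference lay above the median of all tested genes for 26 of the 33.

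Psmb3 lay under the intensity limit, which left 32 members in the test. Limma called 0 of them higher and 0 lower, where it called 2.01% of all tested genes higher and 0.203% lower. An unadjusted p under 0.05 was found for 7 with higher values in dbTg and for 0 with lower ones, against 14.0% and 4.64% of all tested genes, so that 21.9% of the tested members stood beside a background of 14.0%. These were Psma1, Psma2, Psmc1, Psmc4, Psmc6, Psmd5 and Psmd6. Between the nearest arrays of the 2 groups, no member was 1.5-fold or more apart, where 5.63% of tested genes were higher by that measure and 0.834% lower. With 2 arrays in each group, an exact permutation test of a single gene cannot give a p below 0.333. The unadjusted count fell to 3 without WT replicate 2, and to 1 without dbTg replicate 1 or without dbTg replicate 2. It was 9 higher and 1 lower without WT replicate 1, where 1 member, Psmd8, was called higher.

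**Figure D1:**
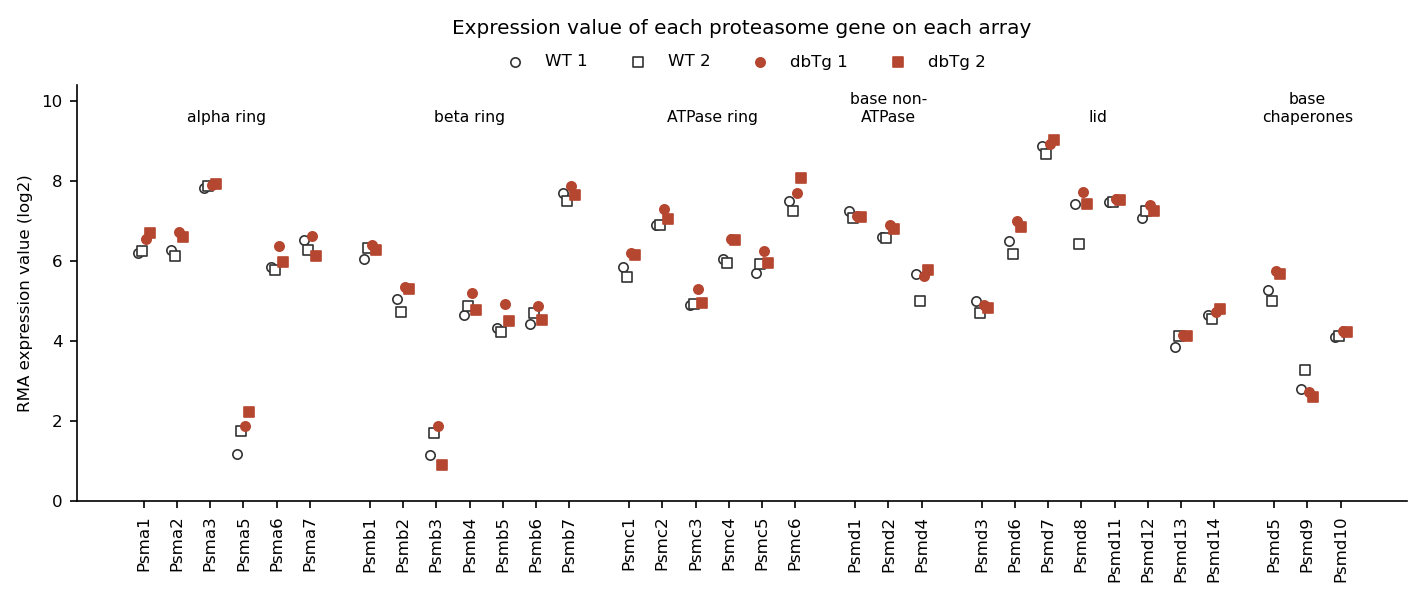
Expression value (log2, vertical axis) of the 33 proteasome genes (horizontal axis, by part of the complex) on each of the 4 arrays, with open symbols for WT, filled symbols for dbTg, circles for replicate 1 and squares for replicate 2. The filled symbols lie above both open ones for 20 genes, and Psma5 and Psmb3 read near or below 2 on all arrays; levels of different genes come from different probes and cannot be ranked.

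The promoters of the members are shown here for 2 short motifs, because these genes are known to be controlled together. RefSeq promoter windows of GRCm38.p6, from 250 bases before to 50 bases after the annotated start, were matched by gene for 27 of the 33 members (29 windows). The unmatched members were Psmb1, Psmb2, Psmb7, Psmc3, Psmd3 and Psmd7. The first motif, TGACNNNGC, is the core of the antioxidant response element bound by the factors NRF1 and NRF2. It was found on either strand in 5 of the 29 windows (17.2%), beside 12.4% of all 32851 windows and 13.9% of the 13135 windows of tested genes. It is printed in capitals with up to 20 bases on each side in lower case, 5′ to 3′ on the strand of the gene and with no base past the transcript start of the window.
Psmb5, chr14:54618014-54618062, minus strand: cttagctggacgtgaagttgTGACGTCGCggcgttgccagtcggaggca
Psmb6, chr11:70525328-70525356, plus strand: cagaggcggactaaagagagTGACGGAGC
Psmc6, chr14:45329577-45329625, plus strand: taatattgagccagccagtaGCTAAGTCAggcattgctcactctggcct
Psmd9, chr5:123228139-123228187, plus strand: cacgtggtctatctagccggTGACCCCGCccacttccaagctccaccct
Psmd12, chr11:107479278-107479309, plus strand: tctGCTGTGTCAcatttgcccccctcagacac
In Psmb5, Psmb6 and Psmd9 the match began 47, 9 and 31 bases before the transcript start of the window. For Psmb6 that start lies after the first base of the gene in RefSeq (70525324), so the match is inside the annotated gene. In Psmc6 and Psmd12, 227 and 247 bases before it, the match was on the opposite strand. The 5 genes with the motif ranged from the lowest difference of all members (Psmd9, -0.37) to 0.51 (Psmc6), with Psmb5 at 0.45, Psmd12 at 0.16 and Psmb6 at 0.13.

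The second motif, CGGAAG, is the core letters of sites for factors of the ETS family, which are frequent in promoters of housekeeping genes. It was found in 17 of the 29 windows (58.6%), of 16 genes, beside 16.9% of all windows and 27.1% of the windows of tested genes. Of the 7 members with an unadjusted p under 0.05, Psmc1, Psmc4, Psmc6 and Psmd6 held it, Psmc4 only after its start. An upstream match is printed for the other three, again in capitals on the strand of the gene.
Psmc1, chr12:100110154-100110199, plus strand: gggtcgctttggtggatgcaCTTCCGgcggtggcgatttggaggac
Psmc6, chr14:45329705-45329750, plus strand: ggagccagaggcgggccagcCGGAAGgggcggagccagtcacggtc
Psmd6, chr14:14120964-14121009, minus strand: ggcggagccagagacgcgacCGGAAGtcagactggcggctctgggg
The same 29 windows were searched for 6 more motifs on both strands. TGAGNNNGC, a second form of the antioxidant element, was in 37.9% of them and in 19.9% of the windows of tested genes. CCAAT, the box bound by NF-Y, was in 37.9% and 36.7%, and GGGCGG, the GC box, in 58.6% and 58.1%. GGAAG, which lies within CGGAAG, was in 89.7% and 74.5%, and TATAAA in 10.3% and 8.26%. TGACGTCA, the cyclic AMP element, was in 0 of the 29 windows and in 2.75% of those of tested genes. A match describes letters in a window and no bound factor, and the shares were not tested.

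The alpha ring, which gates the barrel, had 6 members. 5 of them read higher on both dbTg arrays than on both WT arrays, where 33.7% of all tested genes did. Psma3 did so by a gap of only 0.031. The median difference over the ring was 0.37. Psma2 read 6.28 and 6.13 in WT and 6.72 and 6.58 in dbTg. The groups did not overlap, and the difference was 0.45 (SE 0.16, limma adjusted p = 0.197, 95% interval 0.071 to 0.83). Psma1 read 6.19 and 6.24 in WT and 6.54 and 6.69 in dbTg, a difference of 0.39 (SE 0.16, limma adjusted p = 0.244). Both genes had like differences in the pair of males and the pair of females, 0.45 and 0.45 for Psma2 and 0.34 and 0.44 for Psma1.

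Psma5 had the highest difference of the alpha ring from a low reading. Its arrays read 1.18 and 1.74 in WT and 1.88 and 2.23 in dbTg (difference 0.60, SE 0.25, limma adjusted p = 0.270). The mean of 1.76 was close to the intensity limit of 1.48, and the WT arrays differed from each other by almost as much as the groups did. A dimmer probe set of Psma5, under the limit, differed by 0.14. Psma7 had the only negative difference of the ring, at 6.53 and 6.26 in WT and 6.61 and 6.13 in dbTg. Its groups overlapped (difference -0.023, SE 0.21, limma adjusted p = 0.971, 95% interval -0.53 to 0.48), and its sign turned without WT replicate 1, without dbTg replicate 2 and after median centring. Psma6 differed by 0.34 and Psma3 by 0.069, both with dbTg above WT on all arrays. The excluded brighter probe set that carries Psma4 and AY074887 read 6.85 and 6.80 in WT and 7.29 and 7.22 in dbTg, a difference of 0.43 that lies within the range of the alpha ring.

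The beta ring carries the proteases. Its 7 members had a median difference of 0.17, and in 2 of them (28.6%) both dbTg arrays read above both WT arrays, where 33.7% of all tested genes did. All 7 read higher in dbTg replicate 1 than in dbTg replicate 2, where 51.9% of all tested genes did. The same order was found for 26 of the 33 members, with 3 of 6 in the alpha ring, 5 of 6 in the ATPase ring and 6 of 8 in the lid, so it is not shown to be particular to the beta ring. The median over the ring was 0.43 above the WT mean in dbTg replicate 1 and 0.058 above it in dbTg replicate 2.

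The catalytic subunits are Psmb5 (chymotrypsin-like), Psmb6 (caspase-like) and Psmb7 (trypsin-like). Psmb5 read 4.32 and 4.21 in WT and 4.93 and 4.50 in dbTg. Both dbTg arrays were above WT, and the difference was 0.45 (SE 0.22, limma adjusted p = 0.331, 95% interval -0.072 to 0.96). Psmb6 differed by 0.13 and Psmb7 by 0.17, with groups that overlapped. Of the structural beta subunits, Psmb2 read 5.04 and 4.71 in WT and 5.34 and 5.30 in dbTg. Its groups did not overlap (difference 0.44, SE 0.19, limma adjusted p = 0.280). Psmb4 (0.22) and Psmb1 (0.13) had overlapping groups. Psmb3, which was not tested, read 1.15 and 1.70 in WT and 1.86 and 0.89 in dbTg, so each group held 1 array near 1 and 1 array near 2.

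The ATPase ring of the base, which unfolds substrates, was the one part of the complex in which every member read higher on both dbTg arrays than on both WT arrays. This held for the brightest probe sets of 6 of 6 genes, where 33.7% of all tested genes had that order. For Psmc5 and Psmc3 it held by gaps of only 0.012 and 0.023. A dimmer probe set of Psmc2 had the opposite order, as given below. The median difference was 0.38, with a range of 0.21 to 0.54. Psmc4 had the lowest p of all members. It read 6.04 and 5.95 in WT and 6.55 and 6.52 in dbTg, with a wide gap between tight groups (difference 0.54, SE 0.15, limma adjusted p = 0.130, 95% interval 0.17 to 0.90, a 1.45-fold difference). Its difference lay between 0.49 and 0.58 when an array was left out or the values were rescaled. The rest of the 13 alternatives cannot change it. In the alternatives with all 4 arrays its limma adjusted p lay between 0.103 and 0.243.

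Psmc6 read 7.502 and 7.250 in WT and 7.70 and 8.07 in dbTg (difference 0.51, SE 0.18, limma adjusted p = 0.198). The difference was 0.20 between the males and 0.82 between the females. Psmc1 read 5.83 and 5.59 in WT and 6.20 and 6.15 in dbTg (difference 0.46, SE 0.17, limma adjusted p = 0.210). It is given because it is among the 7 with an unadjusted p under 0.05. Psmc2 read 6.89 and 6.88 in WT and 7.30 and 7.05 in dbTg, a difference of 0.29 (SE 0.16, limma adjusted p = 0.378). Psmc5 differed by 0.28. A dimmer probe set of Psmc2 read 3.15 and 2.69 in WT and 2.68 and 2.55 in dbTg, a difference of -0.30 of the opposite sign, and the mean of both probe sets differed by -0.0072. Psmc3 had the lowest difference of the ring and read 4.89 and 4.92 in WT and 5.28 and 4.94 in dbTg (0.21, SE 0.20, limma adjusted p = 0.624). The difference was 0.40 between the males and 0.023 between the females.

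The non-ATPase subunits of the base gave 3 different pictures. Psmd2, a large scaffold subunit, read 6.59 and 6.56 in WT and 6.90 and 6.80 in dbTg. Its groups did not overlap (difference 0.28, SE 0.15, limma adjusted p = 0.374). Psmd1, the other large scaffold, read 7.25 and 7.07 in WT and 7.11 and 7.10 in dbTg, with both dbTg arrays inside the WT range (difference -0.056, SE 0.15, limma adjusted p = 0.888, 95% interval -0.41 to 0.30). A dimmer probe set that carries Psmd1 and Armc9, excluded for its second symbol, read 1.70 and 1.42 in WT and 1.92 and 1.77 in dbTg. Its difference of 0.28 had the opposite sign. Psmd4, a ubiquitin receptor, read 5.669 and 5.003 in WT and 5.63 and 5.77 in dbTg. Its difference of 0.37 (SE 0.25, limma adjusted p = 0.487) rested on WT replicate 2: it was 0.032 without that array and 0.70 without WT replicate 1.

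The lid had 8 members, all with positive differences and a median of 0.16, and both dbTg arrays were above both WT arrays for 4 of them. Over all tested genes 60.5% were positive and 33.7% had that order. Psmd6 read 6.48 and 6.16 in WT and 6.99 and 6.85 in dbTg, clear of the WT range (difference 0.60, SE 0.17, limma adjusted p = 0.136, 95% interval 0.18 to 1.01, a 1.51-fold difference). Psmd8 had the highest difference of all members and the widest WT spread. It read 7.42 and 6.43 in WT and 7.70 and 7.41 in dbTg. WT replicate 1 and dbTg replicate 2 were level, and WT replicate 2 alone was low (difference 0.64, SE 0.31, limma adjusted p = 0.334). Without WT replicate 1 the difference was 1.13 and called (limma adjusted p = 0.0173), and without WT replicate 2 it was 0.14 (limma adjusted p = 0.749).

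Psmd14, the metalloprotease that cuts ubiquitin chains from substrates, read 4.64 and 4.54 in WT and 4.73 and 4.79 in dbTg, a difference of 0.17 (95% interval -0.26 to 0.60). Psmd11, a lid subunit known to support assembly of the complex in stem cells, differed by 0.050 (SE 0.14, 95% interval -0.27 to 0.37). Psmd7, the partner of Psmd14, differed by 0.20. Psmd12 (0.16) and Psmd13 (0.15) had overlapping groups. Psmd3 had the lowest difference of the lid, at 4.98 and 4.69 in WT and 4.89 and 4.81 in dbTg (0.017, SE 0.19, limma adjusted p = 0.975). Its sign turned without WT replicate 2, without dbTg replicate 1 and after quantile normalization.

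**Figure D2:**
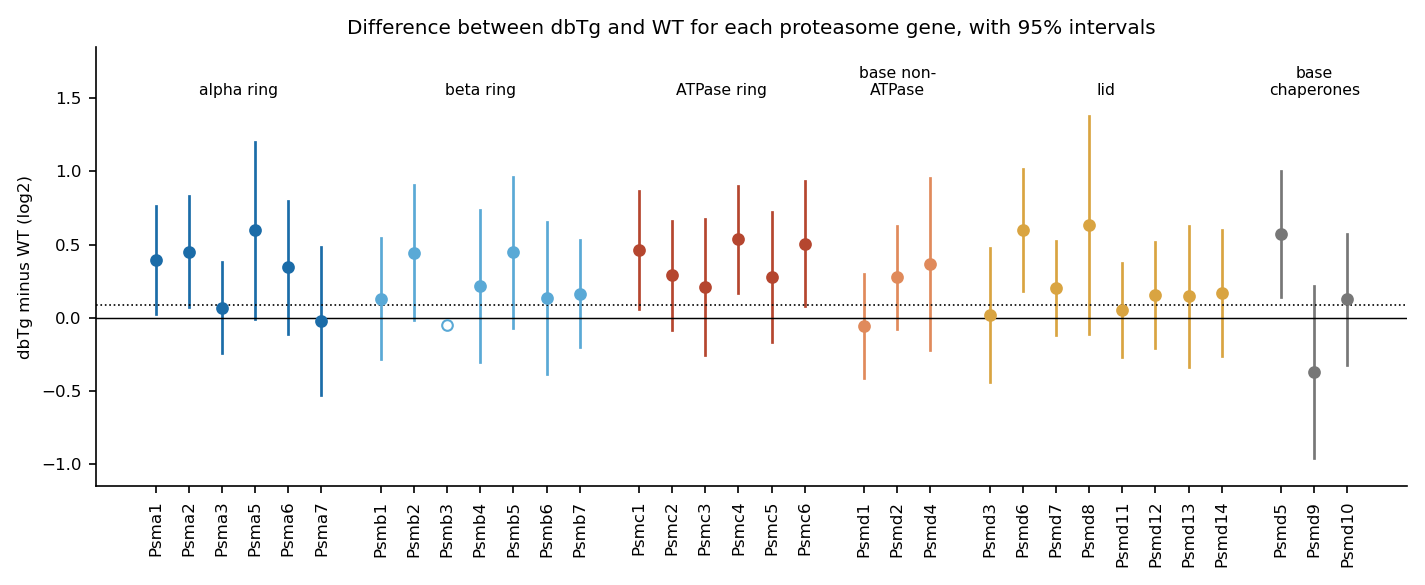
Difference between dbTg and WT (log2, vertical axis) of each proteasome gene, with 95% limma intervals as vertical lines; the dotted line is the median of all tested genes (0.089) and the open circle is Psmb3, which was not tested. The intervals of Psma1, Psma2, Psmc1, Psmc4, Psmc6, Psmd6 and Psmd5 lie above 0, before any adjustment for the number of genes.

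The 3 chaperones that carry Psmd names guide the ATPases into the base and are absent from the finished particle. They differed from each other. Psmd5 read 5.266 and 5.002 in WT and 5.73 and 5.67 in dbTg, with both dbTg arrays above WT (difference 0.57, SE 0.18, limma adjusted p = 0.158). Psmd9 read 2.80 and 3.28 in WT and 2.73 and 2.61 in dbTg and was the one member with both dbTg arrays below WT (difference -0.37, SE 0.25, limma adjusted p = 0.480). The gap was small between the males (-0.075) and larger between the females (-0.67). Psmd10, also known as gankyrin, differed by 0.13.

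The core and the regulatory particle were then set against each other. The median difference was 0.22 over the 13 core genes and 0.28 over the 17 regulatory genes, so core minus regulatory particle was -0.058. That value changed sign with the arrays compared, and was 0.0092 with the mean of the probe sets of each gene. In the male pair the medians were 0.45 and 0.29, and in the female pair 0.15 and 0.25. Across the groups they were 0.32 and 0.34 for dbTg replicate 1 against WT replicate 2, and 0.12 and 0.17 for dbTg replicate 2 against WT replicate 1. The core median was 0.078 without dbTg replicate 1 and 0.42 without dbTg replicate 2, and the regulatory median 0.20 and 0.32. Core minus regulatory particle was -0.12 and 0.10 in the same order, and the SD of that value between arrays of a group was 0.098. The particles were thus not separated beyond the spread between arrays. The alpha and ATPase rings had the highest medians of their particles (0.37 and 0.38), and the beta ring and lid the lowest ones (0.17 and 0.16). The base non-ATPase part lay between, at 0.28. The order of the core rings changed with the arrays: in the male pair the alpha ring was at 0.39 and the beta ring at 0.45. For dbTg replicate 1 against WT replicate 2 both were at 0.32. These differences between parts were not tested.

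**Figure D3:**
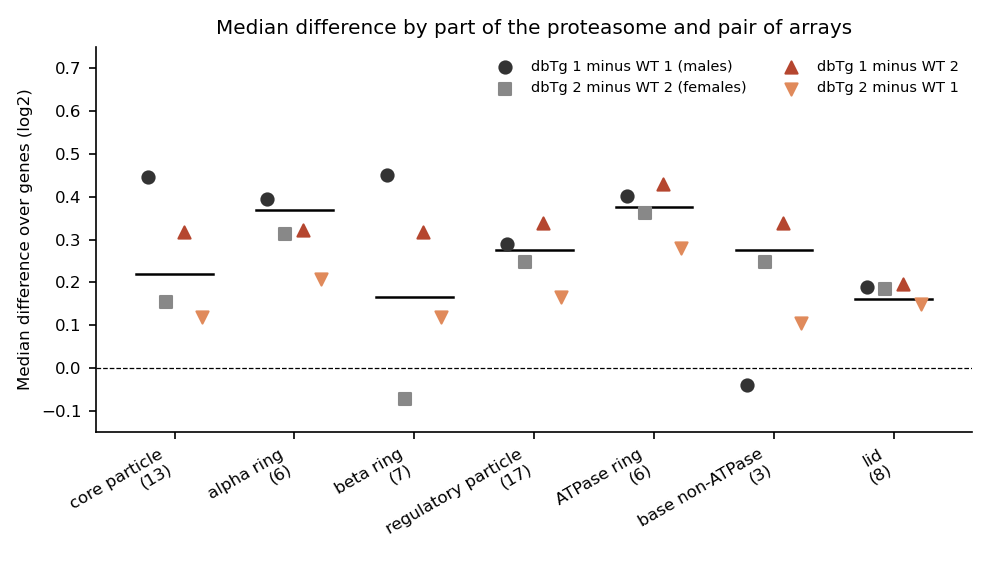
Median difference (log2, vertical axis) over the genes of each part of the proteasome (number of genes in brackets), for each of the 4 pairs of a dbTg and a WT array (symbols) and for the group means (black bars). The core particle ranges from 0.12 to 0.45 and the regulatory particle from 0.17 to 0.34. The beta ring lies below 0 in the female pair (-0.073) and the base non-ATPase part in the male pair (-0.040).

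**Figure D4:**
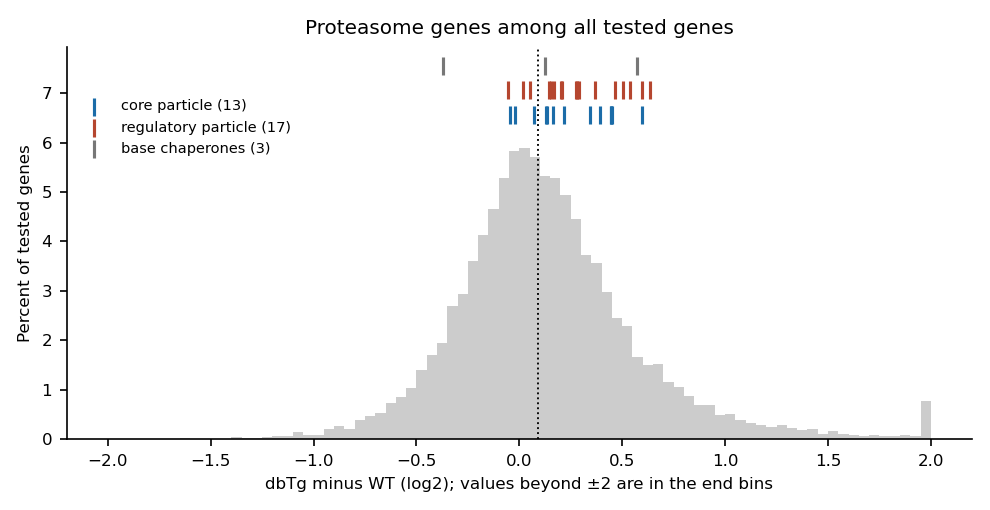
Histogram of the difference between dbTg and WT (log2, horizontal axis) for the 13308 tested genes as a percentage (vertical axis), with ticks for the proteasome genes above it and a dotted line at the median of all tested genes (0.089). The ticks lie between -0.37 and 0.64, inside the bulk of the histogram, and 26 of 33 lie to the right of the dotted line.

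Other genes of the pathway were taken from lists that hold no member. The inducible subunits Psmb8, Psmb9 and Psmb10 replace the catalytic ones in the immunoproteasome. All 3 read above WT on both dbTg arrays, where 33.7% of all tested genes did. Their median difference was 0.63, with 0 of 3 called. Psmb9 read 1.302 and 1.326 in WT and 2.41 and 2.00 in dbTg (difference 0.89, SE 0.21, limma adjusted p = 0.0866), and Psmb10 differed by 0.63 (limma adjusted p = 0.156). The leukocyte markers given above were higher on the same arrays, and a link was not tested. The thymus subunit Psmb11 and the testis subunit Psma8 lay under the intensity limit and differed by -0.036 and -0.24.

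Chaperones that assemble the core had 0 of 4 tested members called, with 3 higher at an unadjusted p under 0.05 and a median of 0.53 over 5 genes. Over all tested genes 2.01% were called higher and 14.0% were higher at an unadjusted p under 0.05. Pomp, the maturation factor of the core, read 5.33 and 5.59 in WT and 6.43 and 6.13 in dbTg, with clear separation of the groups (difference 0.82, SE 0.19, limma adjusted p = 0.0826). Psmg1, which helps to form the alpha ring, differed by 0.85 (SE 0.21, limma adjusted p = 0.1003). Psmg4 was below the intensity limit and differed by -0.43.

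Alternative caps and the inhibitor of the core had 0 of 5 called and a median of 0.047. The inhibitor gene Psmf1 differed by 0.56 (limma adjusted p = 0.223), and the activator gene Psme4, with both dbTg arrays below WT, by -0.47 (limma adjusted p = 0.321). Among 8 partners of the regulatory particle without Psm names, 1 was called higher and 0 lower, with a median of 0.11. The called gene was Zfand2a, a stress-induced zinc finger protein that binds the proteasome. It read 3.81 and 3.95 in WT and 4.87 and 5.31 in dbTg (difference 1.21, SE 0.22, limma adjusted p = 0.0494). Its call held in 6 of 13 alternatives, with adjusted p from 0.0265 to 0.409, and was lost, among others, without dbTg replicate 1, without dbTg replicate 2, after quantile normalization and with replicate number, which is also sex, as a block (adjusted p = 0.0938). Its relative Zfand5 differed by -0.14. Of the 8 partners 5 had positive and 3 negative differences, and Ube3c, with both dbTg arrays below WT, differed by -0.57 (limma adjusted p = 0.202). Shuttle factors and extraction factors had 0 of 7 called (median 0.013). Ubqln1, a ubiquitin shuttle, differed by 0.57 (limma adjusted p = 0.143) and Ufd1, a cofactor of the unfoldase VCP, by 0.55 (limma adjusted p = 0.194). The list held 4 positive and 3 negative differences. Ubqln4 and Ubqln2 went the other way from Ubqln1, by -0.58 and -0.30, with both dbTg arrays below WT.

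Transcription factors of the proteasome genes and their regulators had 0 of 9 called and a median of 0.041. Nfe2l1, which encodes NRF1, read 6.33 and 6.58 in WT and 6.45 and 6.26 in dbTg, with overlapping groups (difference -0.099, SE 0.17, limma adjusted p = 0.812). Nfe2l2, which encodes NRF2, differed by -0.079. Stat3 differed by 0.83 (limma adjusted p = 0.0748) and the NF-Y subunit gene Nfya by 0.55 (limma adjusted p = 0.247). Both factors of the NRF family are controlled mainly through the stability and cleavage of the protein, which an array does not read. NRF2 targets outside the proteasome had 0 of 6 tested genes called and 4 positive and 3 negative differences, with Hmox1 at 0.53 (limma adjusted p = 0.270) and Nqo1 at -0.37 (limma adjusted p = 0.422).

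Of the ubiquitin genes and activating enzymes listed, Uba6 alone was analysed and differed by 0.52 (limma adjusted p = 0.228). Of 11 ubiquitin ligases linked to muscle atrophy, 0 were called higher and 1 lower, with a median of -0.0094. Asb2, a substrate adaptor of a muscle ubiquitin ligase, read 7.789 and 7.996 in WT and 6.71 and 5.80 in dbTg (difference -1.64, SE 0.29, limma adjusted p = 0.0456). Its call held in 6 of 13 alternatives and was lost, among others, without dbTg replicate 1 (adjusted p = 0.0755), without dbTg replicate 2 (0.224) and with replicate number, which is also sex, as a block (0.0958), in a range of 0.0205 to 0.224. Trim63 and Fbxo32, the classical ligases of wasting, differed by -0.27 and -0.82 with overlapping groups. Autophagy and lysosome genes had 0 of 15 called (median 0.18), with Lamp2, a lysosomal membrane protein, at 0.75 (limma adjusted p = 0.0837) and the autophagy kinase gene Ulk1 at -1.10 (limma adjusted p = 0.0957).

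**Figure D5:**
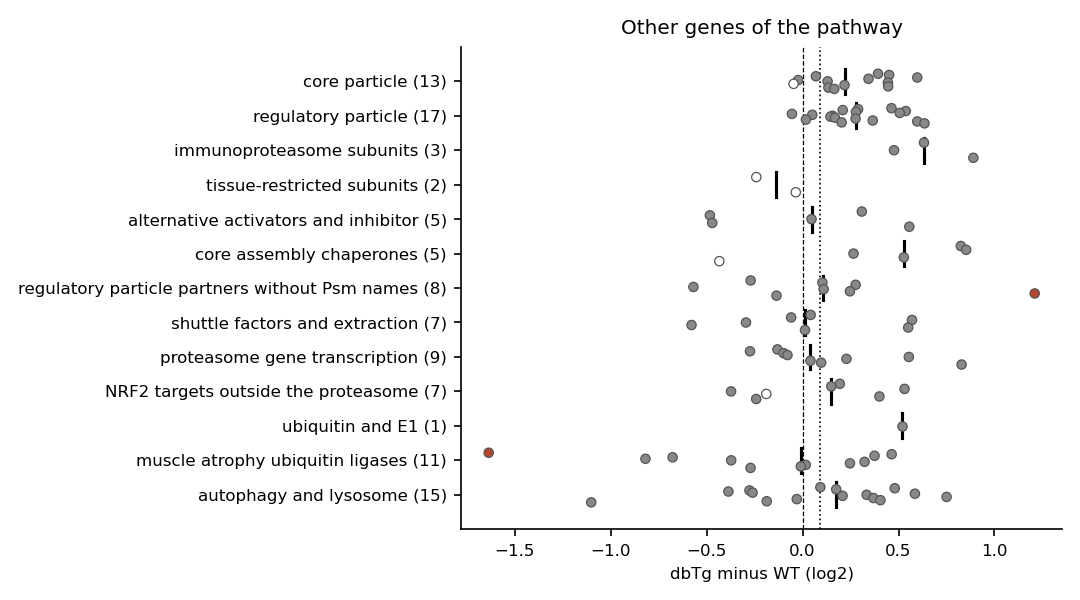
Difference between dbTg and WT (log2, horizontal axis) of the genes of the core and regulatory particles and of the other lists of the pathway (vertical axis, number of genes in brackets); red circles passed the threshold, grey circles did not, open circles were not tested, short black lines are medians, and the dotted line is the median of all tested genes (0.089). Zfand2a at 1.21 and Asb2 at -1.64 are the red circles, and no gene of the core or regulatory particle is red.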

How the data were processed

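Total RNA from quadriceps was hybridised to Affymetrix whole-transcript arrays. Per the labels, the deposited log2 values were made by the authors with Expression Console (RMA-sketch analysis), which corrects background, normalizes by quantiles and summarises probe sets. The software version and annotation build are not stated there, and no presence call was used. Of 41345 probe sets, 23521 had 1 symbol, 1814 several and 16010 none in GEO's platform annotation; Entrez identifiers matched a RefSeq table of GRCm38.p6 for 23328 and changed 0 symbols.

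Groups, taken from the sample titles, were fitted in R 4.3.3 with limma 3.58.1 (eBayes with trend, 2 residual and 4.76 prior degrees of freedom), two-sided, and tested on simulated data. The members, lists and motifs were chosen with earlier results of these data known. Members named with full values were the 2 lowest p, the highest and the lowest difference of each subgroup, and genes with probe sets of opposite sign. From each pathway list, called genes or the 2 lowest p were named; others were chosen after their values were seen. Alternatives were each array left out, the replicate number as a block, scaling, filter, probe set and eBayes settings. The number of arrays limits the precision.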

Additional observations from a re-analysis of the deposited data

Results flagged for a closer look

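In 10 of the 33 proteasome genes the male pair and the female pair differed in opposite directions, as did 36.7% of all tested genes. Each pair is 1 animal against 1, the WT male was older, and the difference between the pairs was not tested. Psmb3 differed by 0.72 between the males and -0.81 between the females, and the other values are in the same order. Psmb4 differed by 0.55 and -0.11, Psmb6 by 0.45 and -0.18, and Psmb1 by 0.33 and -0.073, so that 4 beta ring genes were positive in males alone. Psma7 differed by 0.087 and -0.13. In the lid, Psmd12 differed by 0.32 and -0.0070, Psmd13 by 0.29 and -0.00025, and Psmd3 by -0.089 and 0.12. In the base, Psmd4 differed by -0.040 and 0.77, and Psmd1 by -0.14 and 0.033.

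The brighter probe set with the symbols Psma4 and AY074887, which no comparison used because of its second symbol, was higher on both dbTg arrays than on both WT arrays, by 0.43.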

How the results depend on the processing

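No alternative called a member lower, and only leaving out WT replicate 1 called any higher (1, Psmd8). The count of called members otherwise stayed at 0, also at an adjusted p of 0.10, and ranged from 0 to 1 when 1 array was left out, with the lone array assumed to vary like the other group. Leaving out 1 array moved the median over the members between 0.15 and 0.32, over the core particle between 0.078 and 0.42, over the regulatory particle between 0.20 and 0.32, and core minus regulatory particle between -0.12 and 0.10. The regulatory median was 0.23 after quantile normalization and 0.21 with the mean of the probe sets, where core minus regulatory particle turned to 0.0092. Quantile normalization moved the median of all tested genes from 0.089 to -0.0015 and that of the members from 0.218 to 0.223. The block, the filters and the eBayes settings cannot change a difference, and no member was called in the main fit. Of 235 values of the 19 named members under alternatives, 226 kept their direction and side of the threshold, in part for these reasons. Those that turned sign were Psma7 at 0.11 without WT replicate 1, 0.22 without dbTg replicate 2 (range -0.27 to 0.22 with 1 array left out) and 0.0087 after median centring, Psmc2 at -0.0072 with the mean of its probe sets, Psmd1 at 0.038 without WT replicate 1 (range -0.15 to 0.038), and Psmd3 at -0.13 without WT replicate 2, -0.022 without dbTg replicate 1 (range -0.13 to 0.16) and -0.11 after quantile normalization. The causes were not tested. Same-numbered arrays share a sex (males as replicate 1, females as replicate 2), so the replicate block is a block on sex. The labels name no animals, litters or days shared between same-numbered arrays, and deviations of same-numbered arrays correlated at 0.049 across genes. With the replicate number as a block, 0 members were called and 8 were higher at an unadjusted p under 0.05. Each group holds 1 array of each number, so the block cannot change any difference. The medians over the members (0.22), the core (0.22) and the regulatory particle (0.28) were the same by construction. So was core minus regulatory particle (-0.058). Zfand2a and Asb2 lost their calls with the block (adjusted p = 0.0938 and 0.0958), an alternative run for both after their values were seen.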
